A study of Mus musculus with 12 samples.

Results

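Endocannabinoid signalling in the medial prefrontal cortex of the mouse was followed through 8 genes: the receptor gene Cnr1 and the genes of 7 enzymes that make or break down its lipid ligands (Dagla, Daglb, Mgll, Abhd6, Abhd12, Napepld and Faah). They were chosen by gene name among the 55678 names in the expression table, the rows of a name were summed, and all 8 reached the level needed for testing (at least 1 TPM in at least 3 libraries, met by 16423 genes). Each of 12 libraries came from a mouse that was either C57BL/6JmsSlc, called B6 here, or BALB/cCrSlc, called BALB/c, and that was either a control or had undergone chronic restraint stress (CRS), which gives 4 groups of 3. CRS mice spent 6 h per day in a restrainer in the home cage for 21 days, controls were handled but not restrained, and no group carried an engineered allele. Mice were 9 to 10 weeks old, all had gone through behavioural tests before collection, and the tissue was a punch of 1.5 mm, so each library mixes every cell type in the punch. The sex of the mice is not given in the sources used here.

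Endocannabinoids are lipid messengers that neurons make on demand from membrane lipids and that travel backwards across the synapse. They act on the presynaptic receptor CB1, which lowers transmitter release and which in cortex is densest on the terminals of interneurons that express cholecystokinin. The main ligand of the brain, 2-arachidonoylglycerol (2-AG), is made by diacylglycerol lipases and removed by monoacylglycerol lipase and the ABHD hydrolases, while anandamide is made in part by NAPE-PLD and removed by fatty acid amide hydrolase.

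RefSeq promoter sequences (GRCm38.p6) were matched for 6 of the 8 genes, and 3 are shown because these genes had the largest differences between stressed mice of both strains. Each is the 250 bases before a RefSeq transcript start, read 5′ to 3′ along the gene, and capitals mark the GC box, the letters GGGCGG on either strand (CCGCCC when read on the other strand). The sequences are those of the reference assembly, and the strains were not sequenced here.
Cnr1, chr4:33924014-33924263, plus strand: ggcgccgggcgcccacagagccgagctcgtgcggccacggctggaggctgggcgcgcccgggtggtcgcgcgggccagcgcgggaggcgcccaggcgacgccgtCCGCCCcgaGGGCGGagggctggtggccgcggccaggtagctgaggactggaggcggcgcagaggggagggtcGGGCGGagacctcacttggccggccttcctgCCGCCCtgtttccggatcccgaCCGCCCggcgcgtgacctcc
Faah, chr4:116017925-116018174, minus strand: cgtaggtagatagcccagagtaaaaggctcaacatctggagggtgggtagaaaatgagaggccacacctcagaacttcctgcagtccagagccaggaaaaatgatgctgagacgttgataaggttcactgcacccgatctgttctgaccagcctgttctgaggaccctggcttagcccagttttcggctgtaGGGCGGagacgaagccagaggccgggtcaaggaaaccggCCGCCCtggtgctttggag
Napepld, chr5:21701623-21701872, minus strand: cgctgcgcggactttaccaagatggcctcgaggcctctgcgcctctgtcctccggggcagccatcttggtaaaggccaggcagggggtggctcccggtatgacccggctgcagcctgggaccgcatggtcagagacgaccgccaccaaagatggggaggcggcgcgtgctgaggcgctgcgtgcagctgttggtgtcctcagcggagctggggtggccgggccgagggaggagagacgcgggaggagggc
The table holds 3 windows for Cnr1, and the one shown is the first along the gene. It held 36 CpG dinucleotides, more than 97.4% of the 32851 RefSeq windows of that length in the table (median 6), and it had 5 GC boxes; the other 2 Cnr1 windows held 28 and 5 CpG dinucleotides (more than 92.4% and 44.4% of windows) and no GC box. In the Faah window there were 9 CpG dinucleotides (more than 59.7% of windows) and 2 GC boxes, and in the Napepld window 21 CpG dinucleotides (more than 83.7% of windows) and no GC box. A GC box occurred in 32.7% of all windows. The cAMP response element TGACGTCA (in 1.5% of windows) and its half-site TGACG (which the full element contains, in 17.8%) were searched on both strands and were not in the windows of any of the 6 genes; a match or its absence describes these letters only.

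The 8 transcripts differed widely in level. TPM is an abundance corrected for transcript length and scaled to the same total in each library, so levels of different genes can be set side by side. Abhd12 had the highest mean over the 12 libraries, at 214 TPM, followed by Mgll at 107 TPM, Cnr1 at 60.3 TPM, Faah at 39.5 TPM, Abhd6 at 32.4 TPM and Dagla at 25.6 TPM. Daglb, at 12.0 TPM, and Napepld, at 6.62 TPM, were the lowest, yet Napepld was still above 37.1% of the tested genes. Faah varied most between libraries, with a coefficient of variation of 28.9%, and Cnr1 was next at 22.9%; the median over all tested genes was 19.0%. Abhd12 and Mgll varied least, at 11.1% and 11.4%.

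**Figure D1:**
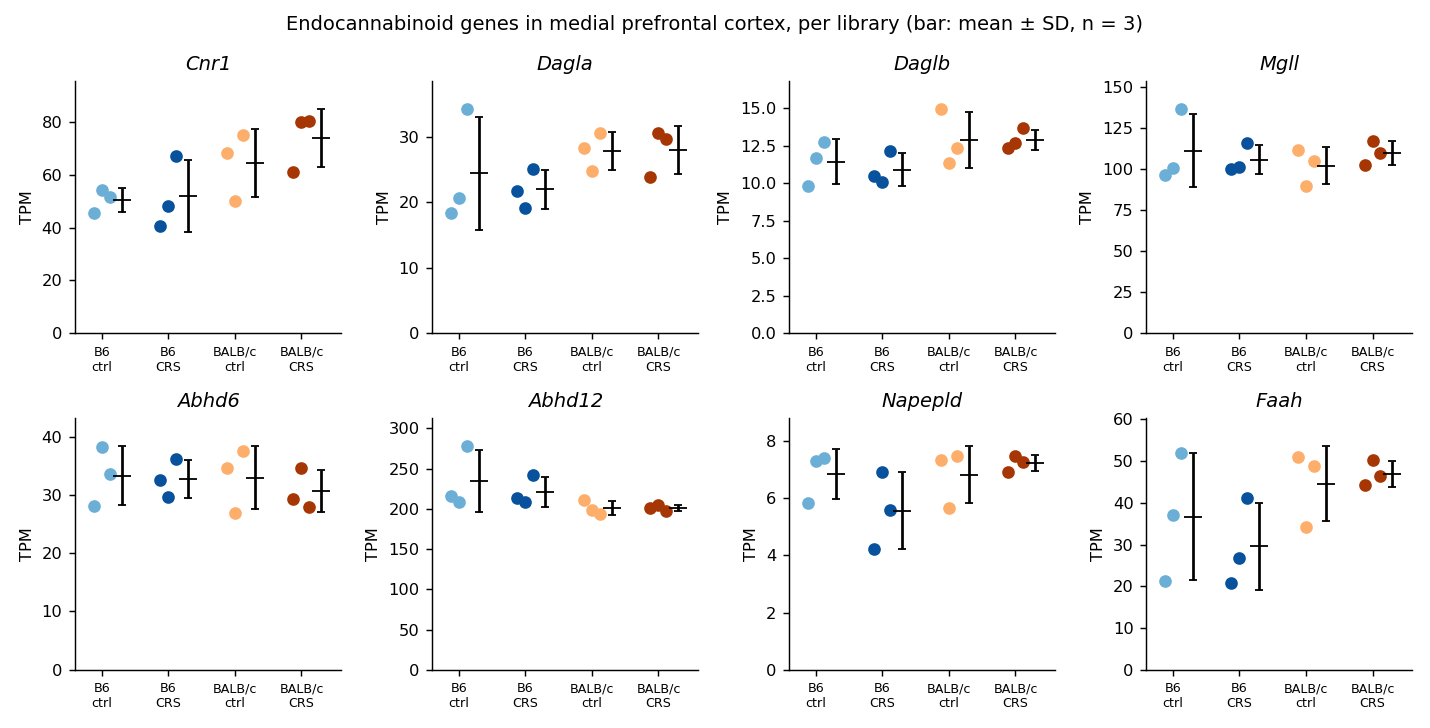
Level of each of the 8 genes in TPM (linear axis from 0) in every library, by group; points are libraries and the bar beside them is the mean ± SD (n = 3). Faah and Cnr1 are more spread between libraries than Abhd12 and Mgll, and groups of a gene overlap in most panels.

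The labelled tissue was checked with markers of the cells a frontal punch could hold. All 7 markers of excitatory neurons were present in each library, with summed levels of 1234 to 2545 TPM in B6 controls, 1247 to 1948 TPM in B6 CRS mice, 1678 to 2271 TPM in BALB/c controls and 1935 to 2340 TPM in BALB/c CRS mice. The 8 markers of medium spiny neurons of the striatum, which lies next to the frontal cortex, were also above 0 everywhere, and their summed level was 205 to 2769 TPM in B6 controls, 867 to 2265 TPM in B6 CRS mice, 110 to 365 TPM in BALB/c controls and 131 to 178 TPM in BALB/c CRS mice. The 7 oligodendrocyte markers summed to 2495 to 9544 TPM and 2715 to 7746 TPM in B6 controls and B6 CRS mice, against 474 to 3037 TPM and 534 to 1435 TPM in BALB/c. Mitochondrial transcripts took 17.35% to 23.88% of TPM, and 18S ribosomal RNA took 3.97% in the BALB/c CRS 12 library against 0.0307% to 0.169% in the other 11. In such bulk samples, fewer cells of a type and less RNA per cell cannot be told apart.

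Restraint stress was compared with control within each strain. None of the 8 genes passed the threshold (limma, Benjamini-Hochberg adjusted p under 0.05 over all tested genes) in B6, where 0% of all tested genes were called, or in BALB/c, where 0.00609% were called. At an unadjusted p under 0.05 the count was again 0 of 8 in both strains, against 4.82% of tested genes in B6 and 3.03% in BALB/c. Control and stressed mice overlapped for all 8 genes in both strains, while they did not overlap for 8.33% of tested genes in B6 and 7.39% in BALB/c. The median log2 difference of the 8 genes was -0.07 in B6, beside 0.00 for all tested genes, and 0.04 in BALB/c, beside 0.05. Averaged over strains the stress effect called 0 of 8 (background 0.00609%; 0 of 8 at an unadjusted p under 0.05, where 5.17% of tested genes were), and the difference between the strains' stress effects called 0 of 8 (background 0%; 0 of 8 at an unadjusted p under 0.05, where 2.7% were). The largest interaction values, on the log2(TPM + 1) scale used for every difference here, were those of Faah, 0.36 (95% interval -0.55 to 1.27), and Napepld, 0.35 (-0.16 to 0.87), both with an adjusted p of 1.00.

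The strains were compared within each condition. In controls 0 of 8 genes were called between BALB/c and B6 (background 4.73%; 0 of 8 at an unadjusted p under 0.05, against 18.7% of tested genes). Under CRS the count was also 0 of 8 (background 7.7%), with Cnr1 and Faah under an unadjusted p of 0.05, where 23.8% of tested genes were. The strains' control groups overlapped for all 8 genes (22.9% of tested genes did not overlap), and their CRS groups did not overlap for 4 of 8, Daglb, Napepld, Faah and Abhd12 (29.3% of tested genes). The median difference of the 8 genes was 0.08 in controls, where that of all tested genes was -0.10, and 0.28 under CRS, where that of all tested genes was -0.06. Scaling the libraries by median of ratios moved the median of all genes in controls to 0.01. The intervals of the single genes still span a range of sizes, so the missing calls do not show equal levels.

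**Figure D2:**
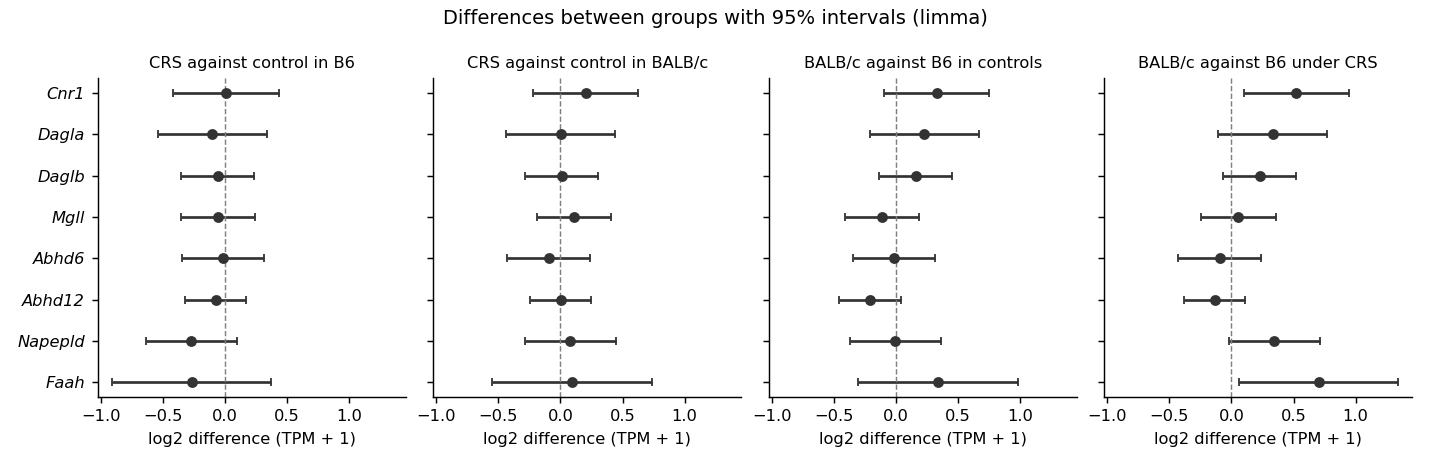
Differences in log2(TPM + 1) for the 8 genes in 4 comparisons; points are limma estimates over 12 libraries and bars are 95% intervals. All intervals in the 3 panels on the left include 0; in BALB/c against B6 under CRS those of Cnr1 and Faah lie above 0 before adjustment over all genes.

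Cnr1, on the plus strand of chromosome 4 at chr4:33924593-33948831 (GRCm38), encodes CB1. It measured 45.7, 54.5 and 51.7 TPM in B6 controls, 40.5, 48.1 and 67.1 TPM in B6 CRS mice, 68.2, 50.2 and 75.2 TPM in BALB/c controls, and 61.2, 80.1 and 80.6 TPM in BALB/c CRS mice. The group means were 50.6 ± 4.50, 51.9 ± 13.7, 64.6 ± 12.9 and 74.0 ± 11.03 TPM (SD, n = 3), and every pair of groups next to each other in that order overlapped. The highest B6 CRS library lay above the lowest BALB/c CRS library, so the stressed groups overlapped too. Cnr1 differed between stressed BALB/c and B6 mice by 0.52 (SE 0.19, 95% interval 0.10 to 0.95), with an adjusted p of 0.122. This difference was not called here, but it passed the threshold in some alternatives. With median-of-ratios scaling it was 0.59 (adjusted p = 0.0398), and without B6 CRS replicate 14 it was 0.72 (adjusted p = 0.0447). With the striatal score (mean log2 level of the 8 striatal markers) as a covariate it was 0.11 (adjusted p = 0.910), and with the oligodendrocyte score 0.23 (adjusted p = 0.950), the smallest values over the 16 alternatives run. Neither score overlapped between the stressed strains, so strain and score cannot be told apart in these fits. In controls the strain difference was 0.33 (-0.09 to 0.75, adjusted p = 0.404). The stress differences were 0.01 (-0.42 to 0.43) in B6, with a sign that changed on leaving out B6 control replicate 2 or B6 CRS replicate 14, and 0.20 (-0.22 to 0.63) in BALB/c. Beside these values, 4 markers of cholecystokinin interneurons summed to 378 to 1021 TPM in B6 controls, 313 to 709 TPM in B6 CRS mice, 916 to 1404 TPM in BALB/c controls and 964 to 1282 TPM in BALB/c CRS mice, with none at 0. Nearly all of that sum is Cck itself (284 to 1385 TPM), which excitatory neurons also express. Slc17a8, at 0.0537 to 0.541 TPM in BALB/c and 0.993 to 2.39 TPM in B6, and under CRS Sncg, at 4.74 to 6.44 TPM in BALB/c and 7.20 to 11.8 TPM in B6, ran the other way, so the list does not move as one with the strain. Its part in the Cnr1 values was not tested.

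Dagla (chr19:10245265-10304877, minus strand) encodes diacylglycerol lipase alpha, the main source of 2-AG in the adult brain. Its values were 18.4, 20.6 and 34.2 TPM in B6 controls, 21.7, 19.2 and 25.1 TPM in B6 CRS mice, 28.2, 24.8 and 30.5 TPM in BALB/c controls, and 23.8, 30.6 and 29.6 TPM in BALB/c CRS mice. The B6 control 9 library was the highest of all 12, and it made the SD of its group 8.59 TPM around a mean of 24.4 TPM; the other groups had means of 22.0 ± 2.97, 27.9 ± 2.88 and 28.0 ± 3.68 TPM (SD, n = 3). Dagla differed between strains by 0.23 (-0.21 to 0.67, adjusted p = 0.598) in controls and by 0.33 (adjusted p = 0.348) under CRS, and every neighbouring pair of groups overlapped. The stress difference was -0.10 (-0.54 to 0.34) in B6, turning to 0.16 without B6 control replicate 9, and 0.00 in BALB/c.

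Daglb (chr5:143464584-143505942, plus strand) encodes the beta form, which is better known from microglia and peripheral tissue. It lay at 9.80, 11.7 and 12.8 TPM in B6 controls, 10.5, 10.1 and 12.1 TPM in B6 CRS mice, 14.9, 11.3 and 12.3 TPM in BALB/c controls, and 12.4, 12.7 and 13.6 TPM in BALB/c CRS mice. All 3 stressed BALB/c mice were above all 3 stressed B6 mice, a pattern found in 9.29% of tested genes, with a difference of 0.23 (adjusted p = 0.343). Stress differences were -0.06 in B6 and 0.01 in BALB/c. Daglb overlaps Rac1, a gene on the other strand at 187 to 274 TPM; the kit keeps strand, but whether the quantification used it is not given in the sources used here.

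Mgll (chr6:88724412-88828360, plus strand) encodes monoacylglycerol lipase, which removes most 2-AG in brain. Its levels were 96.1, 100.9 and 136.5 TPM in B6 controls, 100.1, 100.9 and 116.0 TPM in B6 CRS mice, 111.6, 89.9 and 104.7 TPM in BALB/c controls, and 102.5, 117.2 and 109.9 TPM in BALB/c CRS mice. As for Dagla, the B6 control 9 library was the highest, and the 4 groups overlapped. The strain difference of Mgll was -0.11 in controls, and 0.02 with median-of-ratios scaling, and it was 0.06 under CRS. Its stress differences were -0.06 (-0.36 to 0.24) in B6 and 0.11 in BALB/c.

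Abhd6 and Abhd12 encode hydrolases that take smaller shares of 2-AG, Abhd12 being known also as a lysophosphatidylserine lipase. Abhd6 (chr14:8002902-8056763, plus strand) ranged from 26.9 to 38.2 TPM over the 12 libraries, with group means of 33.3 ± 5.08, 32.8 ± 3.24, 33.0 ± 5.45 and 30.6 ± 3.56 TPM (SD, n = 3) in B6 controls, B6 CRS, BALB/c controls and BALB/c CRS. All groups of Abhd6 overlapped, and its 4 pairwise differences lay between -0.10 and -0.02, that between control strains turning to 0.11 with median-of-ratios scaling. A near-identical gene, Gm1833, was at no more than 0.155 TPM.

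Abhd12 (chr2:150832493-150904741, minus strand) measured 215.6, 208.7 and 278.5 TPM in B6 controls, 212.9, 207.9 and 242.4 TPM in B6 CRS mice, 210.5, 199.0 and 193.5 TPM in BALB/c controls, and 201.2, 205.2 and 196.8 TPM in BALB/c CRS mice. Every stressed B6 mouse lay above every stressed BALB/c mouse, as in 20% of tested genes, but the gap was narrow, and the difference was -0.13 (adjusted p = 0.527). In controls the groups overlapped, with a difference of -0.21 (-0.45 to 0.04, adjusted p = 0.356). The stress differences of Abhd12 were -0.07 (-0.32 to 0.17) in B6 and 0.00 in BALB/c.

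Napepld (chr5:21662901-21701396, minus strand) encodes NAPE-PLD, an enzyme that releases anandamide and other N-acylethanolamines from their membrane precursors. Levels were 5.84, 7.31 and 7.41 TPM in B6 controls, 4.22, 6.91 and 5.58 TPM in B6 CRS mice, 7.35, 5.67 and 7.47 TPM in BALB/c controls, and 6.93, 7.48 and 7.28 TPM in BALB/c CRS mice. The B6 CRS group held the lowest library and had a mean of 5.57 ± 1.35 TPM (SD, n = 3) against 6.85 ± 0.878, 6.83 ± 1.01 and 7.23 ± 0.276 TPM in B6 controls, BALB/c controls and BALB/c CRS. Napepld differed by -0.27 (SE 0.17, -0.64 to 0.09) between stressed and control B6 mice, with an adjusted p of 1. Stressed BALB/c mice lay above stressed B6 mice without overlap, as in 9.29% of tested genes. The highest B6 value was 6.91 TPM and the lowest BALB/c value 6.93 TPM. The strain difference under CRS was 0.35 (-0.02 to 0.71, adjusted p = 0.237). That difference was 0.19 (adjusted p = 0.615) without B6 CRS replicate 12, 0.20 (adjusted p = 0.965) with the oligodendrocyte score as a covariate and 0.0087 (adjusted p = 0.994) with the striatal score. As for Cnr1, strain and score cannot be told apart in the fits with either score. In controls the strain difference was -0.01, and 0.10 with median-of-ratios scaling.

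Faah (chr4:115967145-116017926, minus strand) encodes fatty acid amide hydrolase, the main enzyme of anandamide breakdown. It measured 21.3, 37.0 and 51.8 TPM in B6 controls, 20.9, 26.8 and 41.1 TPM in B6 CRS mice, 50.9, 34.2 and 48.7 TPM in BALB/c controls, and 44.1, 50.3 and 46.4 TPM in BALB/c CRS mice. B6 mice of either condition covered a wide range, with SDs of 15.3 and 10.4 TPM around means of 36.7 and 29.6 TPM, while the BALB/c CRS mice lay close together at 47.0 ± 3.13 TPM (SD, n = 3). All 3 stressed BALB/c mice were above all 3 stressed B6 mice, as in 9.29% of tested genes. The difference was 0.70 (SE 0.30, 95% interval 0.06 to 1.34, adjusted p = 0.172). In controls the groups overlapped, and the difference was 0.34 (-0.30 to 0.98, adjusted p = 0.592). The stress difference of Faah was -0.27 (-0.91 to 0.37) in B6, turning to 0.02 without B6 control replicate 9, and 0.09 (-0.55 to 0.73) in BALB/c, turning to -0.08 without BALB/c control replicate 9.

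Faah was lowest in the B6 mice with the highest striatal markers. The B6 libraries with the highest striatal sums, control 2 at 2769 TPM and CRS 12 at 2265 TPM, had the lowest Faah levels, 21.3 and 20.9 TPM, and B6 control 9, with the lowest striatal sum of 205 TPM, had the highest, 51.8 TPM. Over the 6 B6 mice, controls and CRS pooled, log2 Faah and the striatal score had a Pearson r of -0.937 (exact permutation p = 0.00833, two-sided, adjusted p = 0.0889 over 32 relations). Spearman rho was -0.886 (exact permutation p = 0.0333, adjusted p = 0.170), and r was -0.977 without the 2 mice farthest from the median score. In the 6 BALB/c mice r was -0.899 (exact permutation p = 0.103, adjusted p = 0.194) with a rho of -0.314 (exact permutation p = 0.564, adjusted p = 0.722), and r was 0.396 without the 2 farthest mice, so it rests on those samples. With the striatal score as a covariate the Faah strain difference was -0.23 (adjusted p = 0.484) in controls and -0.45 (adjusted p = 0.411) under CRS, the opposite sign to the values without it. With the oligodendrocyte score as a covariate the Faah difference was -0.28 in controls and 0.046 under CRS. Under CRS the striatal score was 6.03 to 7.37 in B6 and 3.42 to 3.66 in BALB/c, without overlap. The oligodendrocyte score did not overlap either, at 7.7 to 9.2 in B6 and 5.37 to 6.76 in BALB/c. Strain and score therefore cannot be told apart in the CRS values with either covariate.

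Across all 8 genes, the striatal score had a negative Pearson r in both strains, from -0.937 to -0.484 in B6 and from -0.939 to -0.0652 in BALB/c; r was negative for 58.5% of tested genes in B6 and 60.4% in BALB/c. None of these 16 relations had an adjusted p under 0.05 (lowest 0.0889 in B6 and 0.187 in BALB/c). Without the 2 mice farthest from the median score, r kept its sign for all 8 genes in B6 but turned positive for 6 of 8 in BALB/c, so the BALB/c relations of Cnr1, Dagla, Daglb, Mgll, Napepld and Faah rest on those samples. The score of excitatory neuron markers had a positive r with all 8 genes in both strains, as it had for 57.2% of tested genes in B6 and 74.0% in BALB/c. Without the 2 farthest mice, that r turned negative for Abhd12 in B6 (-0.278) and for Cnr1 (-0.0877) and Daglb (-0.555) in BALB/c. Of those 16 relations, Napepld in BALB/c alone passed by Pearson r, at 0.908 (exact permutation p = 0.00139, adjusted p = 0.0444). Its rho of 1 did not pass (exact permutation p = 0.00278, adjusted p = 0.0889), and r was 0.980 without the 2 farthest mice. The share of all tested genes with such an r was not computed. With the striatal score as a covariate, the strain difference under CRS was -0.29 for Dagla, -0.10 for Daglb and -0.35 for Mgll, each opposite in sign to the value without it. The stressed strains did not overlap on that score, so strain and score cannot be told apart in these values.

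**Figure D3:**
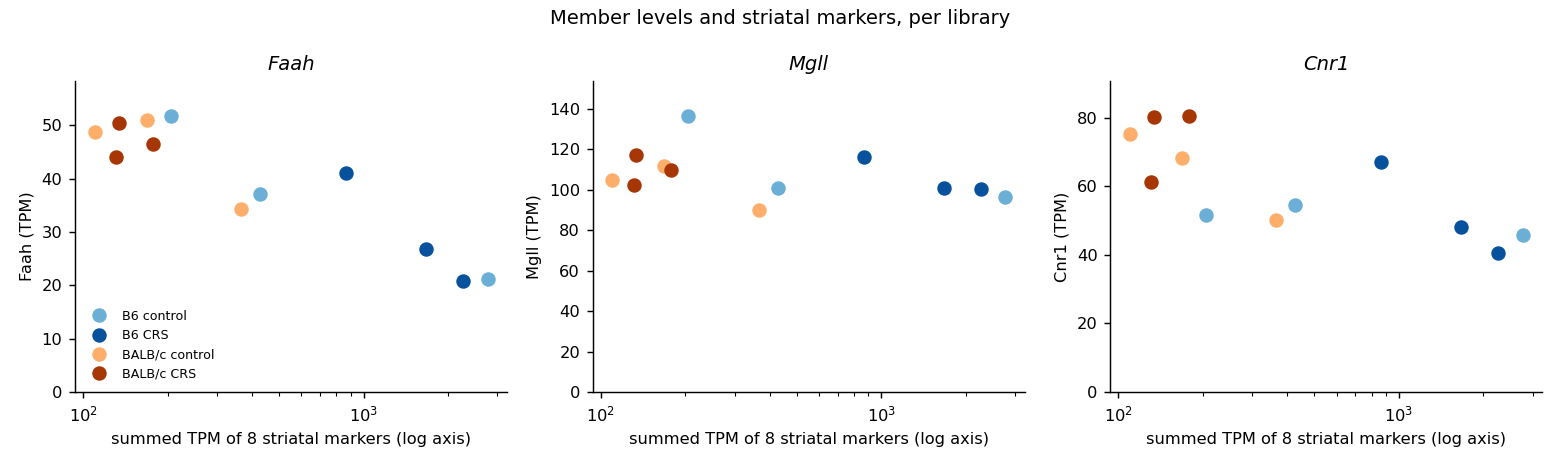
Levels of Faah, Mgll and Cnr1 in TPM (linear axis from 0) against the summed TPM of 8 striatal markers (log axis); each point is a library, coloured by group. In B6, Faah runs from 51.8 TPM at the lowest striatal sum (205 TPM) to 21.3 TPM at the highest (2769 TPM), and all BALB/c libraries have striatal sums of 110 to 365 TPM.

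The table gives several rows for each gene name, apparently single transcripts without an identifier, so rows are ranked here by mean level. Row numbers equalled the transcripts that GENCODE M21 lists for 7 of the 8 genes: 3 for Cnr1 and Dagla, 4 for Daglb, 10 for Mgll, 7 for Abhd12, 2 for Napepld and 8 for Faah; Abhd6 had 2 rows and 3 listed transcripts. The leading row carried 98.0% of Dagla, 92.8% of Abhd6, 87.7% of Daglb, 85.1% of Abhd12 and 84.5% of Cnr1, but only 64.2% of Napepld, 63.7% of Mgll and 58.1% of Faah. Of 33 member rows at or above the filter, 0 were called in any of the 6 comparisons (background 0.0109% of 46000 rows for CRS in B6, 0% for CRS in BALB/c and for the interaction, 0.00435% for the averaged stress effect, 1.69% for strain in controls and 2.08% under CRS). An unadjusted p under 0.05 was found for 5 member rows for CRS in B6 (4.87% of all rows), 2 for CRS in BALB/c (3.94%), 1 for the interaction (3.97%), 3 for the averaged stress effect (4.84%), 3 for strain in controls (12.3%) and 3 under CRS (15%).

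The 2 rows of Napepld differed between libraries more than their sum did. Its first row measured 1.41, 2.33 and 2.51 TPM in B6 controls, 3.61, 5.67 and 3.89 TPM in B6 CRS mice, 5.30, 3.82 and 6.37 TPM in BALB/c controls, and 6.93, 4.09 and 5.08 TPM in BALB/c CRS mice. Its second row measured 4.44, 4.98 and 4.90 TPM in B6 controls, 0.606, 1.24 and 1.69 TPM in B6 CRS mice, 2.06, 1.85 and 1.10 TPM in BALB/c controls, and was listed at 0 in BALB/c CRS 12 beside 3.39 and 2.20 TPM in the other two. The B6 controls were below the other 9 libraries on the first row and above them on the second, a pattern chosen here after the values were seen; 0.343% of the 46000 rows were below and 0.822% above in this way. In B6 the stress difference was 0.81 (SE 0.25, adjusted p = 0.937) for the first row and -1.44 (SE 0.46, adjusted p = 0.938) for the second, and between control strains it was 1.00 (adjusted p = 0.0911) and -1.13 (adjusted p = 0.341). In BALB/c the stress differences were 0.05 and -0.13. GENCODE M21 lists 2 coding Napepld transcripts of 3724 and 3954 bases, and a split of reads between transcripts that share most of their sequence is an estimate whose error the table does not give.

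The third row of Cnr1 held 2.47% of the gene and was lowest in B6 controls. It measured 0, 0.157 and 0.217 TPM there, 1.06, 0.555 and 2.60 TPM in B6 CRS mice, 2.23, 2.64 and 1.65 TPM in BALB/c controls, and 1.07, 2.51 and 3.15 TPM in BALB/c CRS mice. B6 controls lay near 0 and below all other libraries, as in 0.343% of rows. This pattern too was chosen after the values were seen, and the share covers this group and direction only. The difference between control strains was 1.49 (SE 0.35, adjusted p = 0.0661). This row was called with a pseudocount of 0.1 (3.48, adjusted p = 0.0260) and with median-of-ratios scaling (1.53, adjusted p = 0.0408), so the call rests on these settings.

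**Figure D4:**
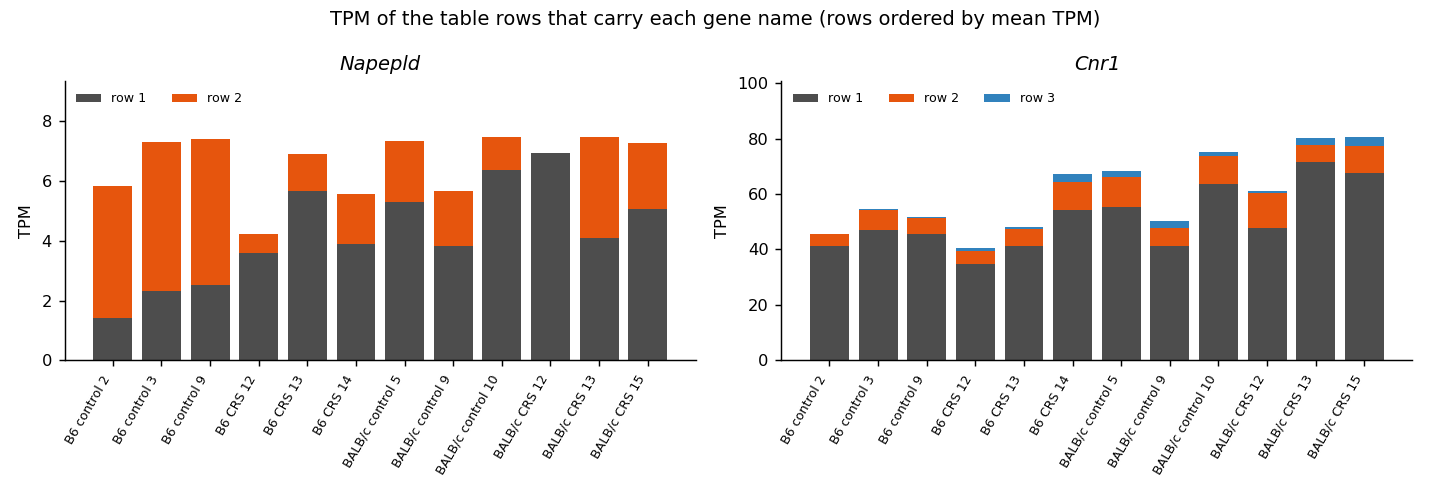
TPM of each table row of Napepld and Cnr1 in the 12 libraries, stacked (linear axis from 0). In B6 controls the second Napepld row carries 4.44 to 4.98 TPM of sums between 5.84 and 7.41 TPM, and in the other libraries the first row is larger.

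Synthesis was set against breakdown as the log2 ratio of TPM, described with no test. GENCODE M21 lists 1 coding transcript of 8 for Faah, 1 of 3 for Dagla, 6 of 10 for Mgll and 2 of 2 for Napepld. Rows carry no identifier, so the share of each summed level that encodes enzyme is not known. Dagla to Mgll was -2.22 ± 0.20 in B6 controls, -2.27 ± 0.11 in B6 CRS mice, -1.87 ± 0.10 in BALB/c controls and -1.98 ± 0.11 in BALB/c CRS mice (SD, n = 3). The B6 values ran from -2.40 to -1.995 and the BALB/c values from -2.11 to -1.78, overlapping only through B6 control 9 and BALB/c CRS 12. With leading rows only, Dagla to Mgll ran from -1.89 to -1.15 in B6 and from -1.49 to -0.95 in BALB/c. There B6 control 9 (-1.15) lay above every BALB/c CRS library and above BALB/c control 5 (-1.36). Ratios of other gene pairs were not computed for comparison of the strains. Napepld to Faah was -2.34 ± 0.47 and -2.38 ± 0.47 in B6 controls and B6 CRS mice, and -2.70 ± 0.10 and -2.70 ± 0.05 in BALB/c (SD, n = 3), with the wide B6 spread following that of Faah. On the leading rows alone, Napepld to Faah was -3.29 in B6 controls and -2.08 in B6 CRS mice because the first row of Napepld is the lower of its 2 rows in B6 controls.

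A wider list of 34 endocannabinoid genes was examined in the same fit, and 26 reached the filter. The list was written with earlier results of these data known, so its counts and called genes are no independent finding. Cnr2, the gene of the second cannabinoid receptor, stayed at or below 0.253 TPM, Gpr55 at or below 0.262 TPM and Trpv1 at or below 0.208 TPM; Gpr119, Ptpn22, Alox12 and Ces1d also missed the filter, and Gpr18 was listed at 0 throughout. For CRS in B6, CRS in BALB/c and the interaction 0 of 26 were called (backgrounds 0%, 0.00609% and 0%), with 1, 1 and 0 at an unadjusted p under 0.05 (backgrounds 4.82%, 3.03% and 2.7%). Between strains 1 was higher and 1 lower in BALB/c controls, and 2 were higher and 2 lower in stressed BALB/c mice, against backgrounds of 1.36% higher and 3.37% lower, and 2.37% higher and 5.33% lower. At an unadjusted p under 0.05 (limma) the strains differed for 6 of 26 in controls (background 18.7%) and 7 of 26 under CRS (background 23.8%). None of the tested CB1 partners, inhibitory G proteins or genes of 2-AG precursor supply, such as Grm5 and Plcb1, was called in any comparison.

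Naaa encodes N-acylethanolamine acid amidase, a lysosomal enzyme that degrades N-acylethanolamines alongside FAAH. It measured 31.8, 25.9 and 23.8 TPM in B6 controls and 35.9, 29.1 and 39.2 TPM in B6 CRS mice, against 12.8, 11.9 and 9.92 TPM in BALB/c controls and 9.02, 11.9 and 12.0 TPM in BALB/c CRS mice. No BALB/c mouse came near the B6 range. Naaa was lower in BALB/c by -1.16 (SE 0.16, adjusted p = 0.000920) in controls and by -1.57 (SE 0.16, adjusted p = 6.71e-05) under CRS. Both calls held in all 16 alternatives run, in controls only just with the oligodendrocyte score as a covariate (-0.97, adjusted p = 0.0489). Under CRS neither that score nor the striatal score overlapped between the strains, so those fits cannot tell strain and score apart.

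Pla2g4e encodes a calcium-dependent N-acyltransferase that makes the precursors of N-acylethanolamines. It lay at 1.37, 2.16 and 3.48 TPM in B6 controls and 2.34, 2.07 and 3.22 TPM in B6 CRS mice, against 9.71, 7.18 and 6.88 TPM in BALB/c controls and 7.59, 8.54 and 8.86 TPM in BALB/c CRS mice. Pla2g4e was higher in BALB/c in both conditions, by 1.45 (SE 0.22, adjusted p = 0.00200) in controls and 1.41 (SE 0.22, adjusted p = 0.00256) under CRS. The call was lost with the oligodendrocyte score as a covariate (1.17, adjusted p = 0.0896, in controls and 1.11, adjusted p = 0.143, under CRS) and, under CRS, with the striatal score (0.72, adjusted p = 0.286). Under CRS neither score overlapped between the strains, so strain and score cannot be told apart there. Gm13997, a gene that overlaps Pla2g4e on the same strand, was at no more than 1.21 TPM.

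Ptgs2 encodes cyclooxygenase-2, which can oxygenate 2-AG and anandamide. It was higher in stressed BALB/c mice (7.02, 10.9 and 11.7 TPM) than in stressed B6 mice (1.82, 3.51 and 4.22 TPM), by 1.40 (SE 0.29, adjusted p = 0.0140). That call was lost with the striatal score as a covariate (0.50, adjusted p = 0.599), with the oligodendrocyte score (1.02, adjusted p = 0.423), and without B6 CRS replicate 12 (1.13, adjusted p = 0.0635), BALB/c CRS replicate 13 (1.32, adjusted p = 0.0553) or BALB/c CRS replicate 15 (1.27, adjusted p = 0.0525). The stressed strains did not overlap on either score, so a fit with one cannot tell strain and score apart. Fabp5, a carrier of anandamide inside cells, was lower in stressed BALB/c mice (93.2, 107.0 and 100.7 TPM) than in stressed B6 mice (117.6, 149.5 and 139.9 TPM), by -0.43 (SE 0.10, adjusted p = 0.0276). Leaving out B6 CRS replicate 13 or 14, or BALB/c CRS replicate 12 or 15, ended the Fabp5 call (differences from -0.43 to -0.35, adjusted p from 0.0683 to 0.101), as did either covariate and a fit of the 2 compared groups alone (-0.43, adjusted p = 0.0678).

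Fabp7, the carrier of astrocytes and neural progenitors, was the 1 gene of the 26 called for stress averaged over strains, at 1.23 (SE 0.13, adjusted p = 0.00995). It was also the 1 gene called among all 16423 tested (0.00609%). Because the list was written with earlier results of these data known, Fabp7 being on it is no independent finding. It measured 35.5, 30.3 and 19.5 TPM in B6 controls against 69.8, 74.0 and 87.0 TPM in B6 CRS mice, and 39.6, 44.8 and 46.9 TPM in BALB/c controls against 86.8, 83.2 and 100.9 TPM in BALB/c CRS mice, with no overlap in either strain, as in 4.63% of tested genes in B6 and 5.36% in BALB/c. The averaged call was lost without BALB/c control replicate 5 (1.20, adjusted p = 0.0624), BALB/c CRS replicate 12 (1.25, adjusted p = 0.0627) or BALB/c CRS replicate 15 (1.19, adjusted p = 0.0568).

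**Figure D5:**
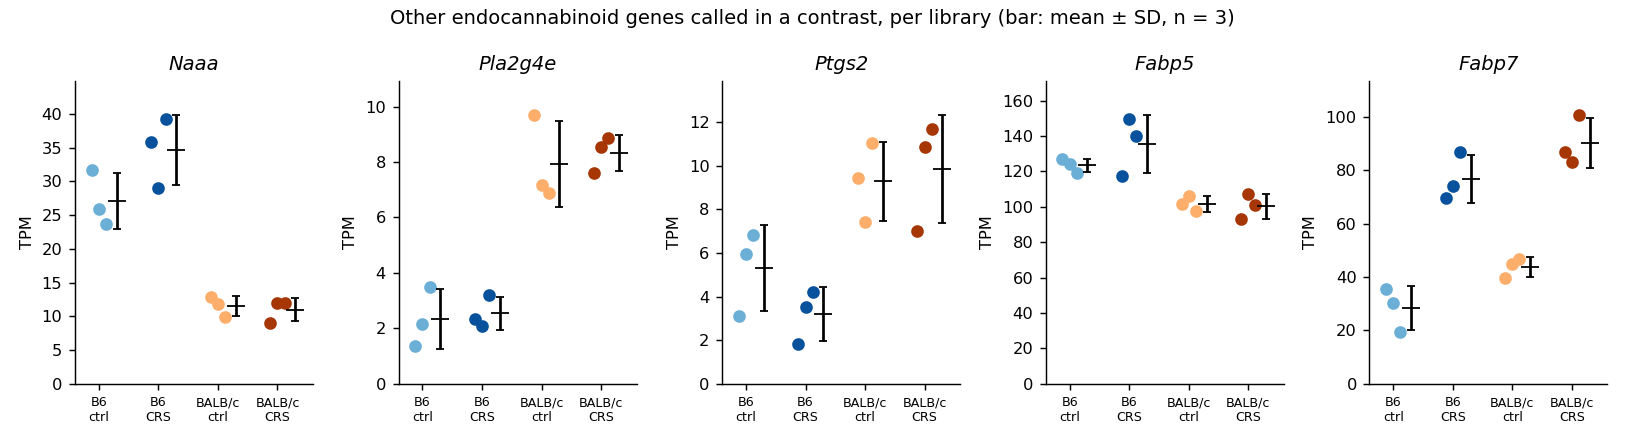
Levels in TPM (linear axis from 0) of the 5 other endocannabinoid genes called in at least 1 comparison, in every library by group; the bar is the mean ± SD (n = 3). Naaa in BALB/c (9.02 to 12.8 TPM) lies below all B6 libraries (23.8 to 39.2 TPM), and Fabp7 in CRS mice lies above the controls of the same strain.

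Pairs of the 8 genes differed in how closely they varied together within groups. After each group's mean was subtracted, Dagla and Mgll correlated most closely (Pearson r = 0.928 over 12 libraries, 8 residual degrees of freedom). Mgll and Faah (0.864) and Mgll and Abhd12 (0.860) followed. The lowest pairs were Abhd12 and Napepld (0.157), Abhd6 and Abhd12 (0.181), and Cnr1 and Abhd12 (0.286). No typical r over pairs of all tested genes was computed. On the same measure the genes most like Mgll were Brinp1 (0.995), Kcna2 (0.991) and Dmtn (0.986), and those most like Faah were Tlcd3b (0.986), Unc13b (0.983) and Sprn (0.982). Dagla was most like Med14 (0.979), Phtf1 (0.974) and Scn8a (0.966), and Cnr1 was most like Mis12 (0.966), Grn (0.962) and Cacfd1 (0.960). These are descriptions over libraries that share tissue, makeup and total, and the highest of 16423 genes is high by selection.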

How the data were processed

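Stranded mRNA libraries were sequenced from 12 punches of medial prefrontal cortex (paired reads of 150 bp, about 6 Gb per library, per the labels' protocols). The authors deposited TPM values in 1 table of 147902 rows and 55678 gene names, with 1 column per library; each column sums to 1000000, and no 2 columns are identical. Per the submitters' processing notes, cutadapt 2.9, Salmon and GRCm38 were used; their settings, the annotation and the use of strand are not given in the sources used here. TPM keeps no depth, so the number of reads per gene is unknown and precision rests on the spread between libraries.

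Columns were matched to samples by strain and animal number, and groups were read from the titles. The number in each title is read as that of the animal; no label says outright that each library is a separate animal, and p-values then measure only the spread between these samples, which may be technical. TPM was summed per gene name, and the 16423 genes that reached 1 TPM in 3 or more libraries were tested on log2(TPM + 1), a scale that understates the change of low genes, with limma 3.58.1 under R 4.3.3 (group means of all 12 libraries, intensity trend, Benjamini-Hochberg over all tested genes, called at an adjusted p under 0.05). Single rows (46000) were fitted likewise. Simulated data with known changes were used to test the code. Correlations across mice used exact permutation tests (scipy 1.17.1), computed within each strain. Control and CRS mice of a strain were pooled and permuted together, so treatment was not taken into account. Batches of library preparation are not given in the sources used here.

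The 8 genes were fixed by name, and they, the wider list, the marker lists and the rules were chosen with earlier results of these data known. All 8 are named, genes of the wider list are named where called, and the 3 genes most like Cnr1, Dagla, Mgll and Faah are given, passing over predicted genes. Positions are from GENCODE M21 (GRCm38) and near-identical transcripts (at least 95% identity over 80% of the shorter one) were searched with blastn 2.17.0. Alternatives changed the pseudocount, filter, scaling, trend, samples, covariates or replicate block, or left out each library in turn.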

Additional observations from a re-analysis of the deposited data

How the results depend on the processing

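The count of 0 called members held in every alternative for the stress effects, the interaction and the strain difference in controls; for BALB/c against B6 under CRS it was 1 (Cnr1) with median-of-ratios scaling and ranged from 0 to 1 on leaving out single libraries. The count of called member rows was 1 with a pseudocount of 0.1 and 1 with median-of-ratios scaling (0 otherwise). For the wider list, whose alternatives were chosen after seeing the data, CRS in B6 called 1 gene, Fabp7, with a pseudocount of 0.1 and with a mean of at least 5 TPM (0 to 1 without single libraries); averaged stress ranged from 0 to 1 without single libraries; strain in controls called 1 with the myelin score; and strain under CRS called 1 with the myelin score and 1 with the striatal score (2 to 3 without single libraries). The ratios moved by more than their SD on the leading rows: Dagla to Mgll to -1.55, -1.74, -1.12 and -1.43 and Napepld to Faah to -3.29, -2.30 and -2.38 in B6 controls, BALB/c controls and BALB/c CRS. No member difference that changed sign passed the threshold before or after, and the cause was not tested. The stressed strains did not overlap on the striatal score or on the oligodendrocyte (myelin) score. In the fits with either score, strain under CRS therefore cannot be told apart from it.

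With the striatal score as a covariate the signs changed to these values: for CRS in B6, Dagla 0.15, Daglb 0.072, Mgll 0.10, Abhd6 0.12, Abhd12 0.025 and Faah 0.18; for CRS in BALB/c, Dagla -0.066, Daglb -0.027, Abhd12 -0.027 and Faah -0.036; for the interaction, Cnr1 -0.017, Dagla -0.21, Daglb -0.099, Mgll -0.041, Abhd12 -0.052 and Faah -0.22; for strain in controls, Dagla -0.078, Daglb -0.0031 and Faah -0.23; for strain under CRS, Dagla -0.29, Daglb -0.10, Mgll -0.35 and Faah -0.45. With the myelin score the values were, for CRS in B6, Cnr1 -0.0091; for CRS in BALB/c, Dagla -0.038, Daglb -0.011 and Abhd12 -0.016; for strain in controls, Dagla -0.12, Daglb -0.010 and Faah -0.28; for strain under CRS, Dagla -0.032 and Mgll -0.19. Median-of-ratios scaling gave, for CRS in BALB/c, Dagla -0.055, Daglb -0.046 and Abhd12 -0.059; for strain in controls, Mgll 0.015, Abhd6 0.11 and Napepld 0.10. Leaving out mitochondrial transcripts, Bc1 and 18S gave, for CRS in BALB/c, Dagla -0.023, Daglb -0.015 and Abhd12 -0.026; for strain in controls, Abhd6 0.077 and Napepld 0.079.

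Without single libraries, the differences that changed sign ranged as follows. For CRS in B6 they ran from -0.19 to 0.17 for Cnr1, -0.27 to 0.16 for Dagla, -0.15 to 0.020 for Daglb, -0.15 to 0.098 for Mgll, -0.13 to 0.086 for Abhd6, -0.15 to 0.056 for Abhd12 and -0.61 to 0.017 for Faah. For CRS in BALB/c they ran from -0.075 to 0.11 for Dagla, -0.071 to 0.11 for Daglb, -0.23 to 0.00092 for Abhd6, -0.026 to 0.035 for Abhd12, -0.032 to 0.14 for Napepld and -0.084 to 0.20 for Faah. For the interaction they ran from -0.16 to 0.27 for Dagla, -0.013 to 0.17 for Daglb, -0.21 to 0.034 for Abhd6 and -0.055 to 0.15 for Abhd12. For strain in controls they ran from -0.21 to 0.046 for Mgll, -0.13 to 0.12 for Abhd6 and -0.10 to 0.11 for Napepld. Among the libraries left out, the B6 stress differences of Dagla, Daglb, Mgll, Abhd12 and Faah changed sign only without B6 control replicate 9.

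Numbers 9, 12 and 13 are shared between strains, but they name different mice, and same-numbered mice did not deviate together (correlations of deviations -0.242, -0.0293 and -0.0361). With these numbers as a replicate block the stress differences in B6 were 0.13 for Dagla, 0.053 for Daglb, 0.046 for Mgll, 0.040 for Abhd12 and 0.036 for Faah, opposite in sign to those without it, averaged stress called 0 genes of the wider list (Fabp7 1.29, adjusted p = 0.351), and no other count of calls moved by over 1.5 times. Because TPM keeps no depth, no counting error can be given for Napepld and Daglb, the lowest of the 8.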
